A study of Mus musculus with 80 samples.

Results

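The 10 genes described here form the core of insulin signalling and glucose uptake: the insulin receptor (Insr), its docking proteins (Irs1 and Irs2), a regulatory subunit of PI 3-kinase (Pik3r1), the kinase AKT2 (Akt2), 2 proteins that AKT2 phosphorylates (Foxo1 and Tbc1d4) and 3 glucose transporters (Slc2a1, Slc2a2 and Slc2a4, which encode GLUT1, GLUT2 and GLUT4). They were chosen by name, as 10 of the 32764 genes in the count tables, and all 10 passed the filter on low counts in every tissue. RNA was sequenced from the brown fat (BAT), inguinal white fat (iWAT), muscle and liver of 4 mouse genotypes, giving 80 libraries, 5 for each combination of tissue and genotype. Wildtype (WT) mice were compared with mice lacking the hormone FGF21 (FGF21 KO), mice lacking uncoupling protein 1 (UCP1 KO) and mice lacking both (dKO, obtained by crossing both lines). The sample labels spell the last genotype as "UCP1/FGF12 double KO", and it is treated here as a loss of UCP1 and FGF21, the genes named in the study's methods. All groups were homozygous male mice on a C57BL/6J background, were bred at 30 °C, were moved to room temperature at 10 to 12 weeks of age, and then received a high-fat diet for 3 weeks, with food removed 2 to 3 h before sampling. Both deletions were present in every tissue and from birth, and no label names the muscle that was taken.

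Insulin binds its receptor, which phosphorylates the IRS proteins, and these recruit PI 3-kinase through its regulatory subunits. The lipid signal made by PI 3-kinase brings AKT to the membrane, where it is activated. AKT2 is the AKT form that carries the metabolic actions of insulin in fat, muscle and liver. It keeps the transcription factor FOXO1 out of the nucleus, and it switches off TBC1D4 (also called AS160), a brake on vesicle traffic, so that GLUT4 reaches the cell surface. GLUT4 is the insulin-dependent transporter of adipocytes and muscle fibres, GLUT1 supports basal uptake in many cells, and GLUT2 is the high-capacity transporter of hepatocytes. Brown fat takes up much glucose when it makes heat with UCP1, and FGF21 is a hormone of liver and fat that acts on both energy expenditure and glucose handling. Much of this pathway is set by phosphorylation and by movement of proteins, neither of which an RNA count measures.

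Akt2 and Foxo1 were the members that differed most clearly between genotypes, in BAT, and their RefSeq promoters are shown here for that reason. Akt2 lies at chr7:27591552-27640826 on the plus strand and Foxo1 at chr3:52268336-52353221 on the plus strand (GRCm38). The sequences are the 250 bases before the first RefSeq start of each gene, chr7:27591302-27591551 for Akt2 and chr3:52268087-52268336 for Foxo1 (RefSeq, GRCm38.p6), and capitals mark GC boxes (GGGCGG or, on the other strand, CCGCCC).
Akt2: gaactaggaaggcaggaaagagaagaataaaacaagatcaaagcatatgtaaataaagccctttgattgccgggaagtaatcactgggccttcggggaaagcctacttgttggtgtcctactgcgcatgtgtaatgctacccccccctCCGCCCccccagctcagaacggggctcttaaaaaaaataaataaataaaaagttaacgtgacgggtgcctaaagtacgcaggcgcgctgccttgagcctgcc
Foxo1: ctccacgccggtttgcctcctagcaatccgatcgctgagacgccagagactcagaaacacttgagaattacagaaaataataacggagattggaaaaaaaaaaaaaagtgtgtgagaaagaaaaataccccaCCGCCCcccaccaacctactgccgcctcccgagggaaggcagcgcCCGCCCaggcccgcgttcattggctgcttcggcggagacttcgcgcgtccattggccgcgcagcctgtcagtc
The Akt2 window held 1 GC box and the Foxo1 window held 2. RefSeq windows of this length matched 8 of the 10 members, with 12 windows in all because some genes have several starts. A GC box stood in 7 of these 12 windows and in 32.7% of all 32851 such windows in the genome annotation. The E-box CACGTG stood in 2 of 12 windows, those of Irs1 and Irs2, against 6.02% of all windows. Neither a FOXO site (GTAAACA or TGTTTAC, 3.17% of all windows) nor a cAMP response element (TGACGTCA, 1.55%) stood in any of the 12 windows, which says only that these letters are not in these 250 bases.

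Library totals ranged from 28691377 to 50380696 counts, and no library was a copy of another. Levels below are in CPM, counts per 1000000 counts of a library after TMM scaling over the 80 libraries, and are given as mean ± SD over the 5 libraries of a group unless a range is named. Genotypes were compared within each tissue with edgeR's quasi-likelihood test, and a gene is called when its p-value, adjusted over all genes tested in that tissue, is under 0.01. Nothing in the labels says which libraries came from separate mice, so p-values measure the spread between these libraries, and tests between tissues treat libraries as independent although the same mice may have given several tissues. In BAT, Fgf21 was at 0 to 2 counts in FGF21 KO and 0 to 3 in dKO libraries, and at 7 to 10 in WT. Ucp1 in BAT was at 98548 to 216085 counts in WT, and the 24291 to 60779 of UCP1 KO and 40641 to 90118 of dKO were lower but far from absent. Counts per gene do not show which exons the remaining Ucp1 reads came from. Hepatocyte markers were abundant in liver, skeletal muscle markers in muscle and adipocyte markers in both fat depots, while markers of foreign tissue varied between libraries: skeletal muscle genes in some BAT and iWAT libraries, lymph node genes in 9 of 20 iWAT libraries and hepatocyte genes in a few libraries, with values given beside the results they touch.

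In WT mice the transporters divided the tissues sharply. Slc2a4 was at 648.2 ± 55.1 CPM in muscle, 491 ± 42.2 in BAT, 127 ± 16.5 in iWAT and 0.986 ± 0.140 in liver. Muscle, BAT and iWAT libraries did not overlap in Slc2a4, and the liver libraries held 20 to 33 counts each. The level was 3.94-fold higher in BAT than in iWAT (log2 difference 1.98, edgeR adjusted p = 3.8e-12; 1.25 with library totals, adjusted p = 1.43e-10). The smaller step from BAT to muscle, −0.40 on the log2 scale (edgeR adjusted p = 0.00176), was −0.15 and no longer called (adjusted p = 0.115) when libraries were scaled by their totals. Slc2a2 showed the opposite picture, with 368 to 458 CPM in liver and at most 0.101 CPM in any WT library of the other 3 tissues. Slc2a1 was low in each tissue, at 5.85 ± 0.618 CPM in BAT, 7.99 ± 1.07 in muscle, 11.5 ± 2.98 in liver and 12.5 ± 1.94 in iWAT, and the neighbours liver and iWAT did not differ beyond their spread (log2 difference 0.09, adjusted p = 0.599) unless libraries were scaled by their totals (1.19, adjusted p = 2.74e-06). Per kilobase of exon, which allows genes to be compared, Slc2a4 led the 10 genes in BAT (141 CPM per kb) and muscle (186), and Slc2a2 led in liver (71.6). In iWAT Slc2a4 (36.6 ± 4.74 CPM per kb) and Akt2 (35.7 ± 9.9) were level at the top.

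**Figure D1:**
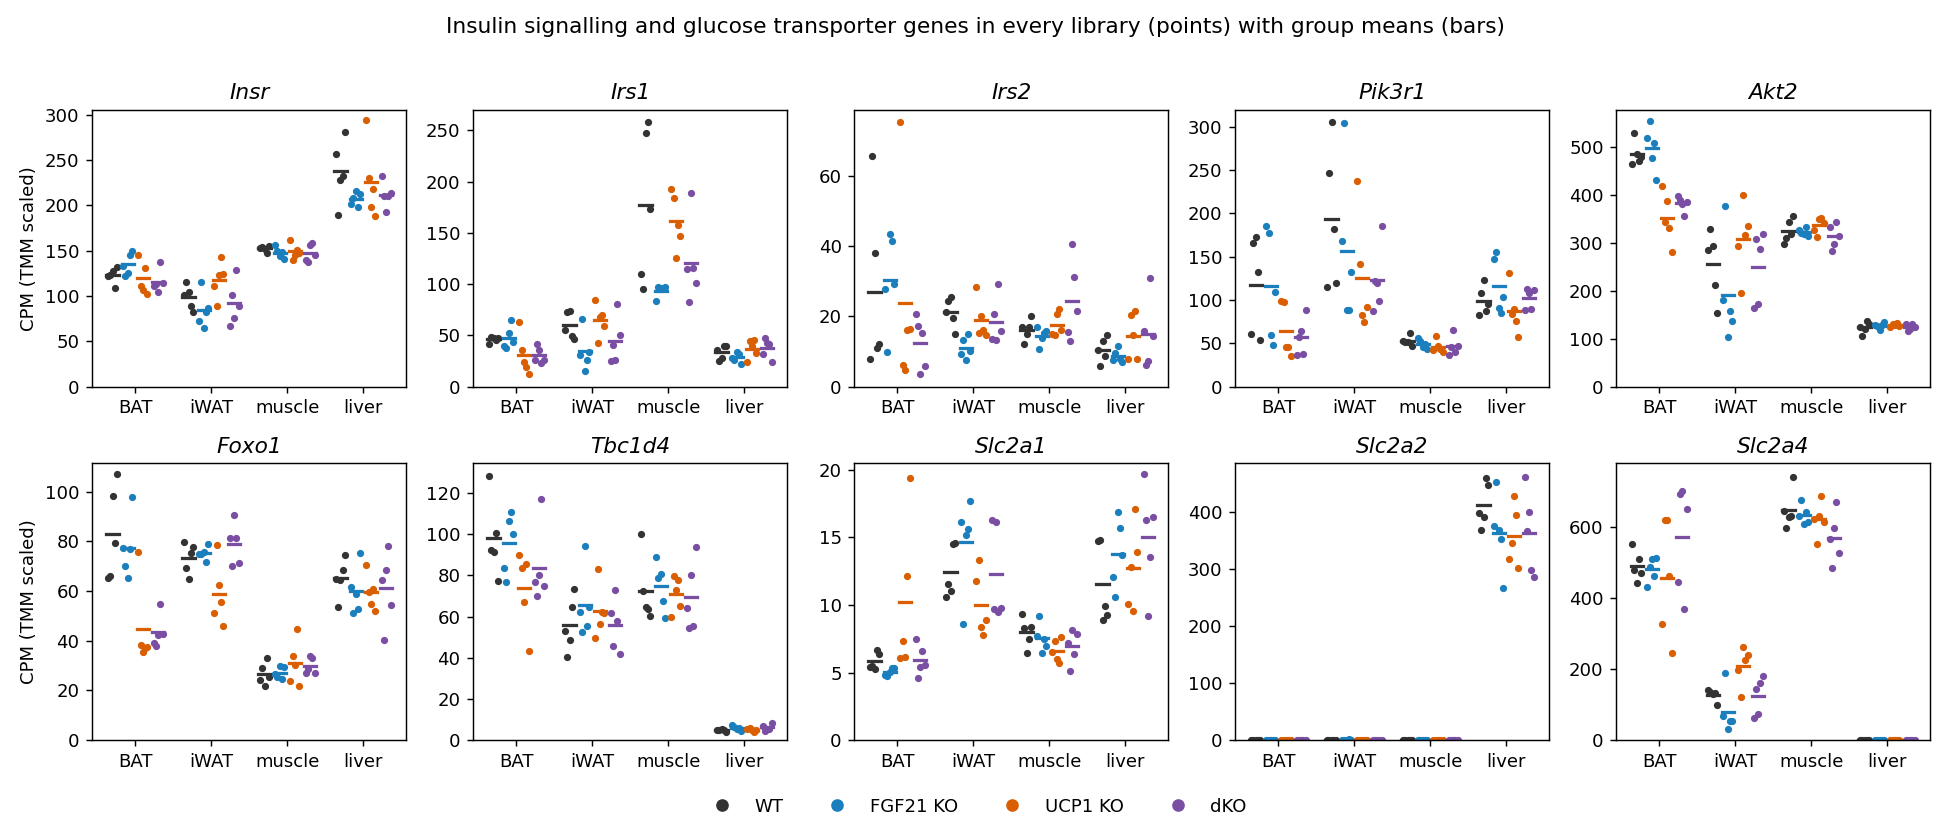
CPM (linear axis from 0) of each of the 10 genes in every library, by tissue and genotype, with one panel per gene and a bar at each group mean. Slc2a4 is high in muscle and BAT and near 0 in liver, Slc2a2 is high in liver alone, and the spread within groups is wide for Irs2 and Pik3r1 in BAT.

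The signalling genes were expressed in all 4 tissues of WT mice. Akt2, the second most abundant member per kilobase in BAT and muscle and level with Slc2a4 in iWAT and with Insr in liver, was at 485.2 ± 25.2 CPM in BAT, 324 ± 24.0 in muscle, 255 ± 70.6 in iWAT and 124 ± 12.0 in liver. Its level in BAT exceeded that in muscle (log2 difference 0.59, edgeR adjusted p = 0.0013; 0.63 and not called in FGF21 KO libraries, adjusted p = 0.0268), while iWAT and muscle did not differ at the threshold (−0.37, adjusted p = 0.0244; 0.59 and called with library totals, adjusted p = 0.000124). Of the 5 WT iWAT libraries, 2 were rich in lymph node genes, and their part in the iWAT levels and tissue differences was not tested. Akt2 averaged 183 CPM in those 2 and 303 in the other 3, Irs1 47.7 and 67.6, and Slc2a1 14.6 and 11.1. Insr was highest in liver (237 ± 34.2 CPM), at 152 ± 3.29 in muscle, 123 ± 8.69 in BAT and 82.0 to 115 in iWAT. Irs1 was highest in muscle (177 ± 75.1 CPM), where its log2 level was 1.94 above BAT and 1.59 above iWAT (0.62 and not called with library totals, adjusted p = 0.0123), and lowest in liver (33.5 ± 6.69). Irs2 was at 10.5 to 26.9 CPM on average and was called only between BAT and liver among the 6 tissue pairs (log2 difference 1.36, adjusted p = 0.0094). That Irs2 call was lost in 15 of 20 fits without 1 library, and without BAT replicate 2 the difference was 0.72 (adjusted p = 0.0816). Foxo1 was at 83.1 ± 19.0 CPM in BAT, 73.5 ± 6.24 in iWAT, 65.2 ± 7.56 in liver and 26.7 ± 4.42 in muscle, and no neighbours in this order differed except liver and muscle. Tbc1d4 was at 97.9 ± 18.9 CPM in BAT, 72.2 ± 16.2 in muscle and 56.0 ± 12.9 in iWAT, and it was 20.5-fold higher in BAT than in liver, where it was at 4.80 ± 0.591. Pik3r1 ranged from 52.6 ± 5.55 CPM in muscle to 194 ± 82.7 in iWAT.

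Tissue differences called 5 of 10 members between BAT and iWAT, where 60.7% of all genes were called, 5 between BAT and muscle (64.1%), 7 between BAT and liver (67.3%), 6 between iWAT and muscle (74.4%), 7 between iWAT and liver (74.9%) and 8 between muscle and liver (73.8%). Scaling by library totals moved the median of all genes by between 0.10 and 1.08 in size on the log2 scale, most in the comparisons with iWAT. Under that scaling the Insr difference between BAT and iWAT turned from 0.35 to −0.38 and that between iWAT and muscle from −0.66 to 0.31, each past the threshold both ways, so the place of iWAT in the order of Insr is not settled by these data. Of the 60 differences between tissues (10 members, 6 pairs), 6 lost their call and 12 gained one with totals, and 4 and 9 of these involved iWAT. Irs2, for instance, gained calls between iWAT and muscle (1.33, adjusted p = 0.00766) and between iWAT and liver (2.04, adjusted p = 0.000277). The iWAT order of Foxo1 also depends on the scaling: the difference between BAT and iWAT was 0.21 (adjusted p = 0.178) with TMM and −0.53 (adjusted p = 0.00345) with totals.

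Loss of UCP1 was followed in BAT, as a comparison with FGF21 present (UCP1 KO against WT) and a separate one with FGF21 absent (dKO against FGF21 KO), which have no library in common. Akt2 and Foxo1 fell in both comparisons, and no member rose in either. Akt2 fell to 0.719 of the WT level in UCP1 KO and to 0.765 of the FGF21 KO level in dKO. Foxo1 fell to 0.534 and 0.558 of these levels. With FGF21 present, 2 of 10 members were called, both lower, where 25.2% of all 15729 genes were called and 11.4% were called lower. With FGF21 absent, again 2 of 10 were called, both lower, where 13.5% of genes were called and 6.80% were called lower. The median log2 difference over the 10 members was −0.31 in each comparison, with 8 of 10 below 0 in the first and 7 of 10 in the second, against a median over all genes of 0.01 and 0.00.

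The Akt2 levels behind this were 464.6, 470.1, 477.7, 485.6 and 528.1 CPM in the 5 WT libraries and 280.8, 331.2, 342.2, 385.9 and 418.4 in the UCP1 KO libraries. FGF21 KO libraries held 430.9, 476.5, 507, 517.3 and 554.2 CPM and dKO libraries 355.4, 380.3, 385.6, 389.1 and 397.6. Every library without UCP1 lay below every library with it in both comparisons. The log2 difference was −0.48 (SE 0.0901) for UCP1 KO against WT, with an edgeR adjusted p of 0.000473, and −0.39 (SE 0.0901) for dKO against FGF21 KO, with an adjusted p of 0.00436. An exact two-sided permutation test of each gave p = 0.00794, the smallest that 5 against 5 libraries allow. The call for UCP1 KO held in each of the 20 fits that left out 1 library, while that for dKO was lost without FGF21 KO replicate 1, 2 or 4 (log2 differences of −0.37, −0.34 and −0.37, adjusted p = 0.0135, 0.0158 and 0.0137). Groups did not overlap for 23.4% of all genes in the first comparison and 18.8% in the second. Since this is bulk RNA, fewer cells of a type and less RNA per cell cannot be told apart.

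Foxo1 stood at 65.3, 65.9, 79.2, 98.3 and 107 CPM in WT and at 35.6, 36.9, 37.4, 38.3 and 75.6 in UCP1 KO. In FGF21 KO it was at 65.4, 69.9, 77.0, 77.3 and 97.9 CPM, and in dKO at 37.7, 39.1, 42.49, 42.54 and 54.9. Groups with and without UCP1 were separate except for 1 UCP1 KO library (replicate 1), which lay inside the WT range. The log2 difference was −0.90 (SE 0.199, edgeR adjusted p = 0.00158) for UCP1 KO against WT and −0.84 (SE 0.199, adjusted p = 0.00479) for dKO against FGF21 KO. The exact permutation p-values were 0.0238 and 0.00794. Without UCP1 KO replicate 1 the first difference was −1.18 (adjusted p = 1.21e-05), and with only these 2 genotypes in the fit it was −0.90 and not called (adjusted p = 0.0139). The dKO call was lost in 7 of 20 fits that left out 1 library, without FGF21 KO replicate 1, 4 or 5 or dKO replicate 1, 2, 3 or 5, with log2 differences of −0.74 to −0.84 and adjusted p of at most 0.0157. UCP1 KO replicate 1 had the highest value of its group for 8 of the 10 members and the lowest for Slc2a1.

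**Figure D2:**
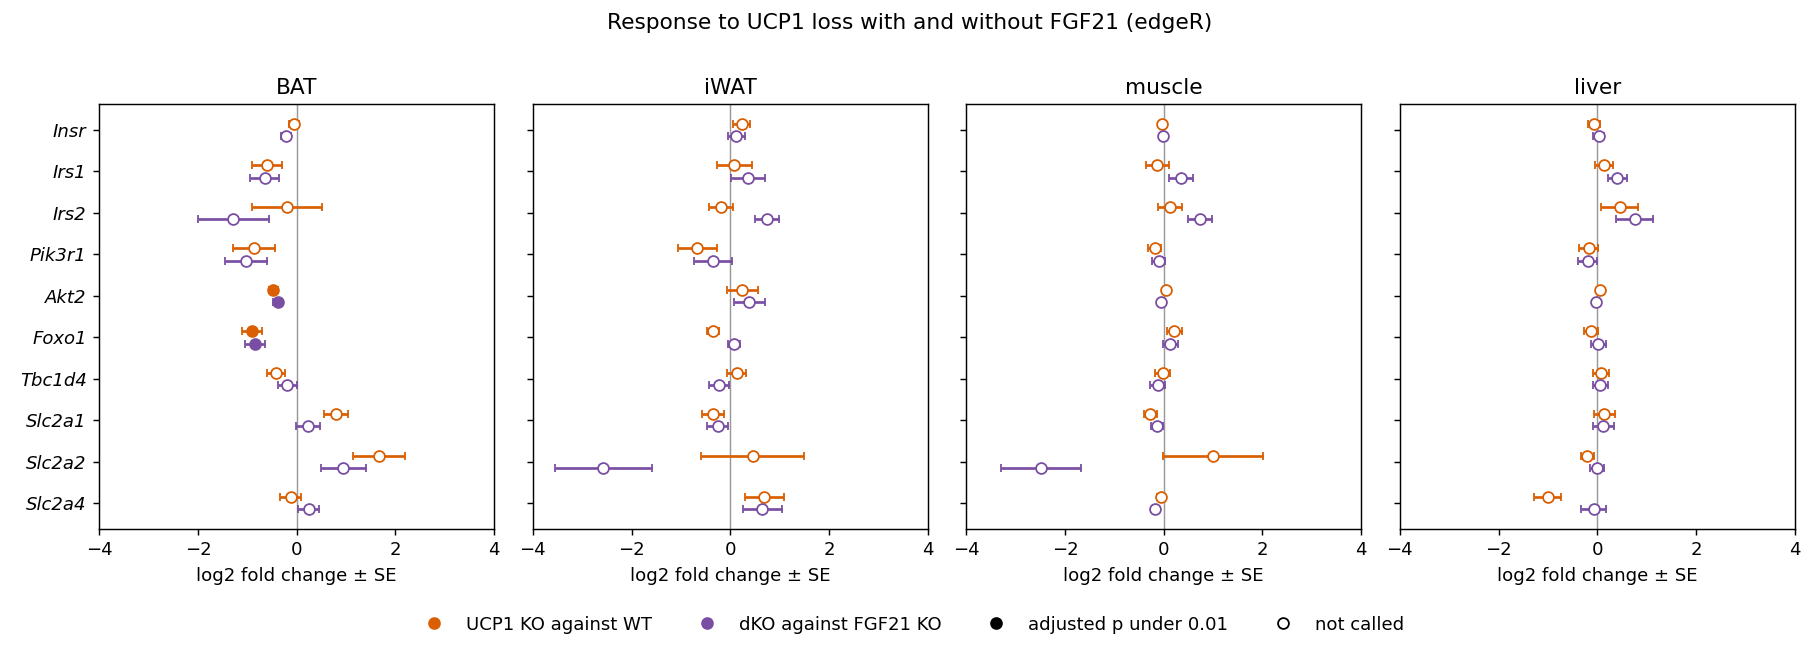
Log2 fold change with its standard error for the 10 genes in each tissue, for UCP1 KO against WT (orange) and dKO against FGF21 KO (purple), with filled symbols where the edgeR adjusted p is under 0.01. The only filled symbols are those of Akt2 and Foxo1 in BAT, between −0.39 and −0.90.

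Upstream of AKT2 no member was called for UCP1 loss in BAT. Insr, the receptor itself, was at 123 ± 8.69 CPM in WT, 135 ± 12.2 in FGF21 KO, 119 ± 18.5 in UCP1 KO and 116 ± 12.6 in dKO, and the 95% interval of UCP1 KO against WT ran from −0.27 to 0.15. Irs1 was at 41.9 to 48.0 CPM in WT against 12.6, 18.8, 23.6, 35.2 and 62.8 in UCP1 KO, a log2 difference of −0.60 (SE 0.297, edgeR adjusted p = 0.113). The 4 other UCP1 KO libraries were thus below all WT libraries and replicate 1 above them, and without that library Irs1 was called, at −1.04 (SE 0.237, adjusted p = 0.0019). In dKO, Irs1 was at 23.4 to 41.2 CPM, below every WT library (for 24.6% of all genes these groups did not overlap, in one direction or the other), yet the difference from WT also missed the threshold (−0.60, adjusted p = 0.121). Pik3r1 and Irs2 varied widely within each genotype. Pik3r1 ran from 54.0 to 173 CPM in WT, 47.6 to 185 in FGF21 KO, 35.8 to 98.4 in UCP1 KO and 36.2 to 88.7 in dKO, with log2 differences of −0.87 (adjusted p = 0.107) and −1.03 (adjusted p = 0.0765) for the 2 tests of UCP1 loss. Irs2 in WT was at 7.98, 11.0, 12.0, 38.1 and 65.5 CPM, and the 95% interval of UCP1 KO against WT ran from −1.68 to 1.29. The mean coefficient of variation of Irs2 within BAT genotypes was 79.8%, above that of 97.3% of the genes tested, and that of Pik3r1 was 47.4%, above 90.9% of genes.

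No transporter was called for UCP1 loss in BAT. Slc2a4 was at 443 to 553 CPM in WT and 432 to 512 in FGF21 KO, but at 245, 327, 463, 619.9 and 621 in UCP1 KO and 368, 446, 651, 694 and 701 in dKO. Libraries without UCP1 spread on both sides of those with it, and the log2 difference was −0.12 (95% interval −0.57 to 0.32, edgeR adjusted p = 0.675) for UCP1 KO against WT and 0.25 (−0.20 to 0.69, adjusted p = 0.407) for dKO against FGF21 KO. Slc2a1, the basal transporter, was at 5.29, 5.41, 5.51, 6.39 and 6.63 CPM in WT and at 6.11, 6.13, 7.31, 12.1 and 19.4 in UCP1 KO, with 2 UCP1 KO libraries well above the rest. Its log2 difference was 0.79 (SE 0.246), with an adjusted p of 0.0155 from edgeR, which misses the threshold, and 0.00475 from DESeq2, which passes it. Over all 4 genotypes together Slc2a1 was called (edgeR adjusted p = 0.00809), beside Akt2 (0.000224) and Foxo1 (0.000611), so that 3 of 10 members were called where 29.7% of genes were, and leaving out 1 library at a time ended the Slc2a1 call in 15 of 20 fits. In dKO, Slc2a1 was at 4.62 to 7.50 CPM, a log2 difference of 0.23 from FGF21 KO (adjusted p = 0.515). Tbc1d4, the brake on GLUT4 traffic, was at 77.3 to 128 CPM in WT and 43.2 to 89.9 in UCP1 KO (log2 difference −0.42, adjusted p = 0.0789).

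Slc2a2 was close to the floor of detection in BAT, with 0 to 3 counts per library in WT, 2 to 10 in FGF21 KO, 4 to 13 in UCP1 KO and 7 to 16 in dKO. It was called for dKO against WT (edgeR adjusted p = 0.0077). The hepatocyte markers moved with it: 3 of 5 (Alb, Apoa1 and Ttr) were called higher in the same comparison. Tat (1.54, adjusted p = 0.0365) and Cyp2e1 (−2.14, adjusted p = 0.0373) were not called and lay on opposite sides, and the summed level of the 5 was 30.8 to 274 CPM in WT and 56.5 to 103 in dKO. With a hepatocyte score as a covariate the adjusted p of Slc2a2 was 0.0703. The call was also lost without WT replicate 1, 4 or 5 or dKO replicate 2, 3 or 4 (adjusted p of at most 0.0237). With 3 counts as the floor, WT gives no base for a fold.

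No member was called for FGF21 loss in BAT. Between FGF21 KO and WT, edgeR called 0 of 10 and 0% of all genes, with 0 of 10 (8.55% of all genes) under an unadjusted p of 0.05 and 0 called by DESeq2, and the 95% interval for Akt2 was −0.15 to 0.22 and for Foxo1 −0.51 to 0.31. Between UCP1 KO and dKO, edgeR again called 0 of 10, where 0.0636% of all genes were called, with 1 of 10 (12.9% of genes) under an unadjusted p of 0.05 and 0 called by DESeq2. That one was Slc2a1 (log2 difference 0.77, SE 0.244, edgeR adjusted p = 0.23), while Akt2 differed by −0.13 (−0.31 to 0.06) and Foxo1 by 0.04 (−0.38 to 0.45). The difference between the 2 responses to UCP1 loss, with and without FGF21, was tested directly. With edgeR it called 0 of 10 members and 0% of genes, with 0 of 10 (5.37% of genes) under an unadjusted p of 0.05 and 0 by DESeq2. The interval was −0.36 to 0.18 for Akt2, −0.65 to 0.52 for Foxo1 and −0.17 to 1.29 for Slc2a1. Loss of both genes, dKO against WT, shares its dKO and WT libraries with the comparisons above. It called Akt2 (−0.35, adjusted p = 0.00577), Foxo1 (−0.94, adjusted p = 0.00151) and Slc2a2, 3 of 10 members where 21.1% of genes were called. The Akt2 call was lost in 8 of 20 fits without 1 library, WT replicate 2, 3, 4 or 5 or dKO replicate 2, 3, 4 or 5, with log2 differences of −0.32 to −0.36 and adjusted p of at most 0.0188.

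Markers of other cell types moved with UCP1 loss in BAT. The summed level of 5 macrophage markers was 47.5 to 61.2 CPM in WT, 43.9 to 63.8 in FGF21 KO, 65.2 to 175 in UCP1 KO and 46.9 to 99.3 in dKO, with 4 of 5 called higher in UCP1 KO and 1 of 5 in dKO against FGF21 KO. The 5 adipocyte markers summed to 9992 to 11122 CPM in WT, 10337 to 11020 in FGF21 KO, 5115 to 11659 in UCP1 KO and 9228 to 12039 in dKO, with 2 of 5 called lower in UCP1 KO (Adipoq by 1.15 and Lipe by 0.43 on the log2 scale) and 1 of 5 in dKO against FGF21 KO (Adipoq, by 1.01). The 5 brown adipocyte markers summed to 5980 to 10483 CPM in WT and 7785 to 11262 in FGF21 KO, against 2288 to 5122 in UCP1 KO and 3675 to 4640 in dKO, without overlap in either comparison. Much of that sum is Ucp1, the deleted gene: the other 4 markers summed to 2711 to 3389 CPM in WT, 2751 to 3488 in FGF21 KO, 1772 to 3933 in UCP1 KO and 2446 to 2847 in dKO, and overlapped in both comparisons. The same 2 of 5 were called lower in both, Ucp1 itself and Cox8b (−0.74 and −0.59), and the part of these cells in the Akt2 and Foxo1 differences was not tested. No marker of these lists was at 0 in every library. The 10 skeletal muscle markers summed to 29.9 to 138 CPM in WT and 32.9 to 499 in FGF21 KO, against 72.6 to 10353 in UCP1 KO and 110 to 5449 in dKO. With the macrophage score as a covariate, no member was called. Akt2 then differed by −0.25 (edgeR adjusted p = 0.178) and Foxo1 by −0.65 (adjusted p = 0.18) in UCP1 KO, and by −0.28 (0.0357) and −0.72 (0.0312) in dKO against FGF21 KO. That covariate left 3.80% of all genes called for UCP1 KO against WT. With a covariate for skeletal muscle, Akt2 and Foxo1 remained called in UCP1 KO (adjusted p = 0.00255 and 0.0049), Slc2a2 was called as well (adjusted p = 0.00408), but Akt2 and Foxo1 were not called in dKO against FGF21 KO (−0.36 and −0.79, adjusted p = 0.0327 and 0.0306). Without the 4 libraries highest in muscle genes, 1 UCP1 KO and 3 dKO, the UCP1 KO differences were −0.47 (adjusted p = 0.0027) and −0.85 (adjusted p = 0.00632), and those of dKO against FGF21 KO, −0.37 and −0.96, were again not called (adjusted p = 0.0505 and 0.022). With the hepatocyte score, Foxo1 alone was called in dKO against FGF21 KO (−1.02, adjusted p = 0.0087, with Akt2 at −0.36 and 0.0277).

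The other genes of the pathway, 76 in 7 lists with 70 tested in BAT, held 16 called for UCP1 KO against WT, 5 higher and 11 lower, with a median log2 difference of −0.06, where 25.2% of all genes were called. The list of inhibitors held 4 called of 12, and the 3 that rose are described here. Trib3, a pseudokinase that binds AKT and is induced by cellular stress, rose from 4.51 to 6.82 CPM in WT to 53.0 to 287 in UCP1 KO, 27.7-fold (log2 difference 4.79, SE 0.394, edgeR adjusted p = 1.48e-07). The receptor phosphatase gene Ptprf rose by 1.53 and Grb10, an adaptor that binds the insulin receptor, by 0.60 on the log2 scale (adjusted p = 0.00985). Grb10 passed narrowly: it was at 0.53 with the covariate for skeletal muscle (adjusted p = 0.0345), 0.59 with the hepatocyte score (0.0136) and 0.60 without the muscle-rich libraries (0.0135), each close in size but not called, and at 0.33 with the macrophage score (0.439). Among receptors and adaptors 2 of 8 fell: Irs3, a docking protein of rodent fat, went from 24.1 to 43.4 CPM to 7.78 to 22.9 without overlap (log2 difference −1.09, adjusted p = 0.00686), and Sh2b1 fell by 0.49.

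Foxo4, a close relative of Foxo1, fell with it, from 74.3 to 80.3 CPM in WT to 38.8 to 50.2 in UCP1 KO, 1.64-fold lower (edgeR adjusted p = 4.43e-06), the only one of 7 genes tested among FOXO factors and insulin target genes to be called. Of the kinases 1 of 12 was called, Pik3cd, a PI 3-kinase catalytic subunit of white blood cells, which rose by 1.28 on the log2 scale. Of the mTORC1 arm 1 of 8 was called, Eif4ebp1, which restrains translation and fell by 0.52. The transporter Slc2a6 rose by 2.03 from a low level (0.116 to 0.251 CPM in WT, 0.337 to 1.08 in UCP1 KO), 1 of 8 other transporters. The GLUT4 traffic list held 6 called of 15, all lower, where 11.4% of all genes were called lower. These were Rhoq, Sort1, Rab13, Vamp2, Stx4a and Rab14, named after their values were seen, with log2 differences between −0.21 and −0.47. With the covariate for skeletal muscle 4 of the 15 were called, all lower, in a fit that called 21% of all genes, and with the macrophage score 0 of 15 and 2 of all 70 pathway genes, Trib3 (3.99, adjusted p = 5.07e-05) and Foxo4 (−0.57, adjusted p = 0.00613).

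**Figure D3:**
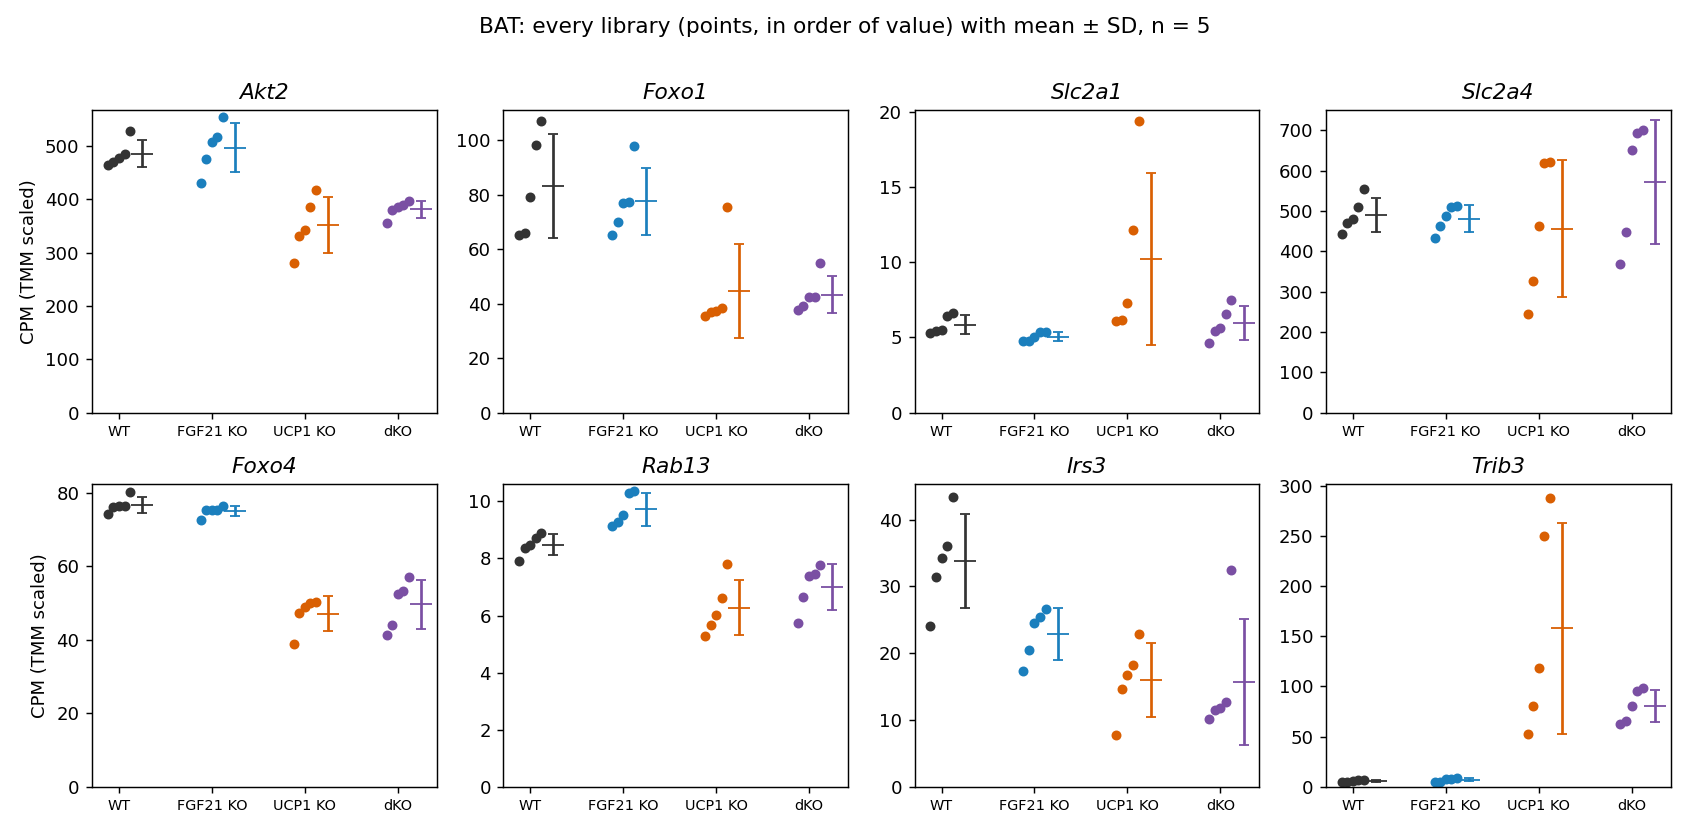
CPM in BAT of 8 genes by genotype, with a point per library (5 per group) and the mean ± SD. Akt2, Foxo1, Foxo4 and Rab13 have lower means in both genotypes without UCP1, Trib3 is higher in both, and Slc2a4 ranges from 245 to 701 CPM in the genotypes without UCP1.

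With FGF21 absent the same pathway lists held 10 called of 70 for dKO against FGF21 KO, 1 higher and 9 lower, where 13.5% of all genes were called and 6.80% were called lower. Trib3 rose from 5.24 to 8.59 CPM in FGF21 KO to 62.8 to 98.1 in dKO (log2 difference 3.54, edgeR adjusted p = 3.25e-06). Foxo4 fell from 72.6 to 76.4 CPM to 41.4 to 57.1 (−0.60, adjusted p = 5.58e-05). Slc2a3, the transporter GLUT3 of neurons and white blood cells, fell by 0.89 from a low level of 2.56 to 4.99 CPM. GLUT4 traffic held 5 called of 15, all lower, against the same 6.80%, among them Rab13 (−0.48) and Rhoq (−0.40). With the hepatocyte score as a covariate 0 of these 15 were called (6.38% of all genes in that fit), with the macrophage score 2 (7.54%), and with that for skeletal muscle 3 (8%). For dKO against WT 11 of 70 were called, 4 higher and 7 lower, where 21.1% of all genes were, and Pck1, a FOXO target gene that serves glycerol synthesis in fat, fell by 1.17 (adjusted p = 0.0077). Neither FGF21 KO against WT nor UCP1 KO against dKO called any of the 70 genes with edgeR or DESeq2, and 6 and 10 of them had an unadjusted p under 0.05, against 8.55% and 12.9% of all genes.

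Libraries of iWAT differed in lymph node content within every genotype. A score of 8 lymph node genes, the mean of their log2 levels, split the 20 libraries into 11 between −0.57 and 1.78 and 9 between 6.45 and 7.33, and the 9 were spread unevenly: 2 of 5 WT, 4 of 5 FGF21 KO, 1 of 5 UCP1 KO and 2 of 5 dKO. Akt2, Insr, Irs1, Irs2 and Slc2a4 had lower means in the high than in the low libraries of every genotype, Tbc1d4, Slc2a1 and Foxo1 had higher ones, and no test was made of this. Akt2 averaged 303 CPM in the low and 183 in the high WT libraries, 304 and 168 in dKO, and the only low FGF21 KO library held 376 against a mean of 144. The Ucp1 counts also ran against the label here, at 3942 to 20264 in libraries labelled UCP1 KO and 109 to 776 in WT, and Fgf21 was at 0 to 1 counts in FGF21 KO and 0 in dKO.

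No member was called by edgeR or DESeq2 in any comparison of genotypes over all iWAT libraries. The share of all genes called was 1.74% over the 4 genotypes, 0.610% for libraries labelled UCP1 KO against WT, 0.0115% for dKO against FGF21 KO, 0.466% for UCP1 KO against dKO, 0.00575% for FGF21 KO against WT, 0.0173% for dKO against WT and 0% for the interaction. Between 0 and 4 of 10 members had an unadjusted p under 0.05 in these comparisons, against 5.91% to 22.5% of all genes. Slc2a4 was at 98.7, 129.6, 131.6, 136.7 and 139.8 CPM in WT and at 122, 197.9, 226, 240 and 263 in UCP1 KO. All but 1 of the UCP1 KO libraries were above every WT library, and that one was the high lymph node library. The log2 difference was 0.69 (95% interval −0.13 to 1.51, edgeR adjusted p = 0.461). Among low libraries alone, 3 WT held 135 ± 5.26 CPM, 4 UCP1 KO 232 ± 27.3 and 3 dKO 161 ± 18.9. In a fit of those 11 libraries Slc2a4 rose by 0.73 (SE 0.113, adjusted p = 0.00399) in UCP1 KO, 1 of 10 members called where 3.73% of genes were, and when the score entered as a covariate in all 20 libraries the difference was 0.35 (adjusted p = 0.301). These 2 ways of handling the score gave different calls. UCP1 KO replicate 1, whose 10 skeletal muscle markers summed to 16807 CPM, had the lowest Slc2a4 of the 4 low UCP1 KO libraries, and without it the difference among low libraries was 0.81 (adjusted p = 0.00135), while Slc2a1 was then also called (−0.45, adjusted p = 0.00904). The 5 brown adipocyte markers moved with Slc2a4 in iWAT. They summed to 36.1 to 90.7 CPM in WT, at most 81.8 in FGF21 KO, 262 to 1596 in UCP1 KO and 22.8 to 128 in dKO. Without Ucp1, the other 4 summed to 33.2 to 80.3 CPM in WT, 8.92 to 68.2 in FGF21 KO, 196 to 1118 in UCP1 KO and 20.2 to 109 in dKO. Of the 5 markers, 2 (Cidea and Dio2) were called higher in UCP1 KO over all libraries, and none was at 0 in every library. The part of these markers in the Slc2a4 difference was not tested.

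**Figure D4:**
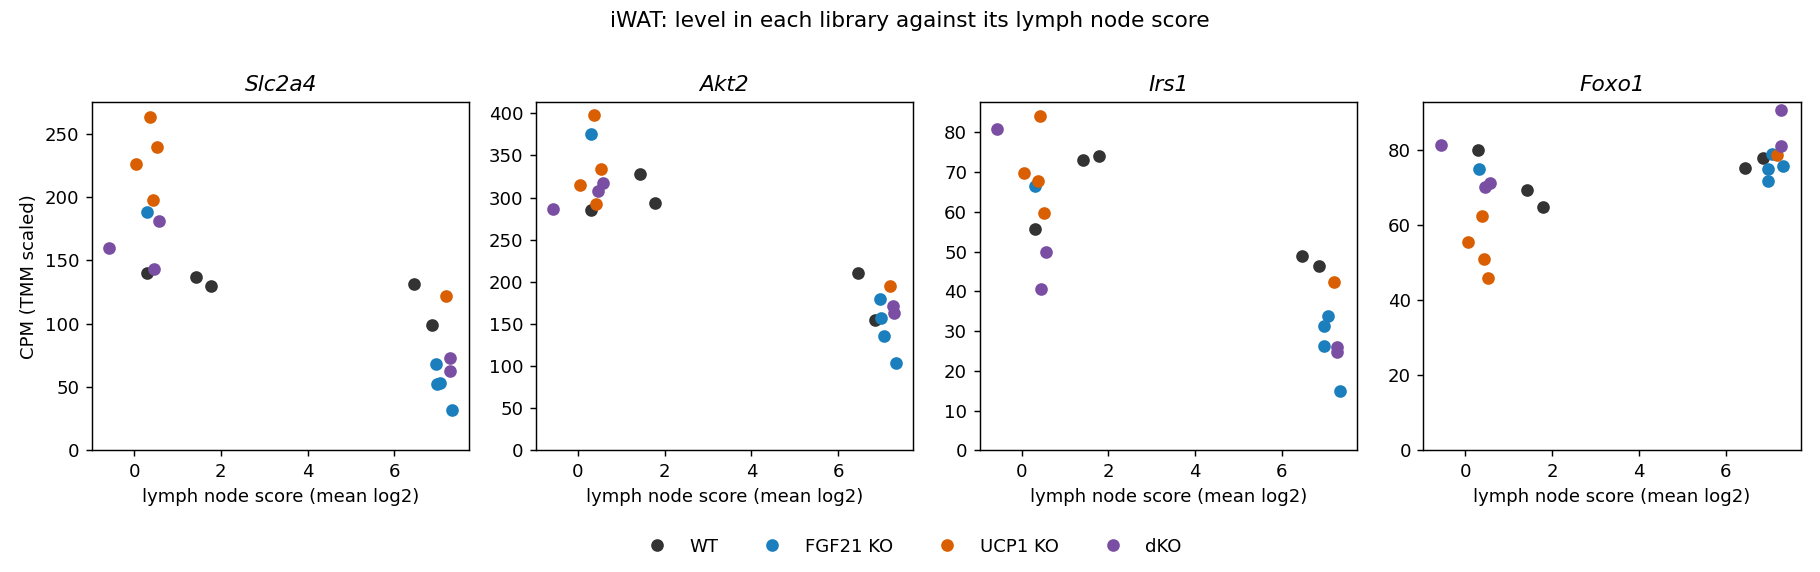
CPM of Slc2a4, Akt2, Irs1 and Foxo1 in the 20 iWAT libraries against the lymph node score (mean log2 level of 8 lymph node genes), coloured by genotype. The 9 libraries above a score of 6 lie below all others for Akt2 and have lower means but overlap them for Slc2a4 and Irs1, and Foxo1 is lowest in 4 UCP1 KO libraries at low scores.

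Foxo1 in iWAT was also lower in UCP1 KO than in WT on average but was not called. It was at 64.9 to 79.9 CPM in WT, 71.7 to 78.8 in FGF21 KO and 70.2 to 90.5 in dKO, and at 46.1, 51.0, 55.6, 62.4 and 78.6 in UCP1 KO. The 4 UCP1 KO libraries of low lymph node score were below every library of the other genotypes, and the high one was inside their range. The log2 difference was −0.35 (95% interval −0.60 to −0.10, edgeR adjusted p = 0.141) against WT and −0.45 (adjusted p = 0.056) against dKO. Among the 11 low libraries alone the differences were −0.45 (adjusted p = 0.0321) and −0.52 (adjusted p = 0.0314). Without UCP1 KO replicate 2, the library with the high score, Foxo1 was called against both (−0.48, adjusted p = 0.00847, and −0.58, adjusted p = 0.00257). Irs2 was at 14.9 to 25.5 CPM in WT and 7.62 to 14.96 in FGF21 KO (−0.94, SE 0.249, adjusted p = 0.209), and Irs1 at 46.5 to 74.1 and 14.9 to 66.4 (−0.79, adjusted p = 0.269). In these 2 genotypes the lymph node libraries numbered 2 and 4, and their part in the difference was not tested.

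Of the other pathway genes in iWAT 2 of 71 were called for UCP1 KO against WT, both higher, where 0.610% of all genes were called. Mtor, the kinase of both mTOR complexes, rose from 46.1 to 52.2 CPM to 64.7 to 137 (log2 difference 0.97, SE 0.170, edgeR adjusted p = 0.00527). The fructose transporter gene Slc2a5 rose from 0.0851 to 0.484 CPM, at most 36 counts, to 2.24 to 12.6 (adjusted p = 0.00762). Both were also called when the lymph node score entered as a covariate, in a fit that also called Deptor, an inhibitor of mTOR, higher (0.78) and 3 genes lower: Grb10 (−0.57), Ptprf (−0.86) and the transporter gene Slc2a10 (−0.64), 6 of 71 in all where 4.69% of all genes were called. Among low libraries alone Ptprf fell by 1.05 (adjusted p = 0.00569) and Grb10 differed by −0.46 (adjusted p = 0.0489), and the depot difference itself, tested over all libraries, was called for Ptprf (2.35, adjusted p = 1.13e-05) and not for Grb10 (0.98, adjusted p = 0.0267).

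The response to UCP1 loss was compared between the fat depots directly. The difference of the 2 differences called 0 of 10 members where 6.30% of genes were called, and 3 of 10 had an unadjusted p under 0.05, against 27.4% of all genes. These were Akt2 (−0.70, edgeR adjusted p = 0.147), Foxo1 (−0.54, adjusted p = 0.148) and Slc2a1 (1.14, adjusted p = 0.0237), with BAT lower for the first pair and higher for Slc2a1. Over all libraries a different response of Akt2 was therefore not shown, but with only the iWAT libraries of low lymph node score it was called, at −0.61 (SE 0.145, adjusted p = 0.0032), 1 of 10 members where that fit called 12.1% of genes. Without BAT UCP1 KO replicate 1, Foxo1 (−0.83, adjusted p = 0.00412) and Slc2a1 (1.27, adjusted p = 0.00863) passed the threshold.

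Muscle had the highest Slc2a4, and no member was called there by edgeR or DESeq2 in any comparison of genotypes. The share of all genes called was 0.0860% over the 4 genotypes, 0.0265% for UCP1 KO against WT, 0.0595% for dKO against FGF21 KO, 0.00662% for FGF21 KO against WT, 0.0529% for dKO against WT and 0% for UCP1 KO against dKO and for the interaction. Between 0 and 3 of 10 members had an unadjusted p under 0.05, against 7.48% to 16.3% of all genes. Insr was at 146.9 to 155 CPM in WT with a coefficient of variation within genotypes of 4.57% on average, and UCP1 KO differed from WT by −0.03 (95% interval −0.12 to 0.06). For Akt2 the interval was −0.06 to 0.16, so a fall of the size seen in BAT is outside it. Slc2a4 was at 598 to 742 CPM in WT and 485 to 671 in dKO (log2 difference −0.18, edgeR adjusted p = 0.289).

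The docking proteins varied more within genotypes in muscle than the other members apart from Slc2a2, with mean coefficients of variation of 24.9% for Irs1 and 25.5% for Irs2. Irs1 was at 95.6, 110.2, 173, 247 and 258 CPM in WT and at 83.1, 95.5, 95.8, 97.0 and 97.3 in FGF21 KO. The FGF21 KO values were close together near the lower end of WT, and the log2 difference was −0.90 (SE 0.240, edgeR adjusted p = 0.0735; DESeq2 adjusted p = 0.0291). UCP1 KO libraries held 125 to 193 CPM and dKO libraries 82.4 to 189. Irs2 was at 10.7 to 17 CPM in FGF21 KO and 12.8 to 40.6 in dKO (0.73, edgeR adjusted p = 0.373). Slc2a2 in muscle was at 0 to 3 counts in WT and 2 to 30 in FGF21 KO, and the 5 hepatocyte markers had a median summed level of 33.0 CPM in WT and 102.4 in FGF21 KO; the part of liver RNA in those counts was not tested.

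Insulin lowers glucose output by liver through FOXO1, and no member was called in liver by edgeR or DESeq2 in any comparison of genotypes. The share of all genes called was 0.340% over the 4 genotypes, 0.0694% for UCP1 KO against WT, 0.229% for FGF21 KO against WT, 0.0416% for dKO against WT, 0.00694% for dKO against FGF21 KO and for UCP1 KO against dKO, and 0% for the interaction. At most 1 of 10 members had an unadjusted p under 0.05, against 5.16% to 12.1% of all genes. Slc2a2 was at 368 to 458 CPM in WT, 266 to 452 in FGF21 KO, 301 to 426 in UCP1 KO and 285 to 461 in dKO, and UCP1 KO differed from WT by −0.20 (95% interval −0.49 to 0.08). Insr was at 189 to 281 CPM in WT against 188 to 294 in UCP1 KO, and Foxo1 differed by −0.13 (−0.44 to 0.18). Akt2 was the steadiest, with a coefficient of variation within genotypes of 5.44%, and 2.43% of the genes tested had a lower one. The 20 to 33 counts of Slc2a4 in WT liver exceeded the 8 to 14 of UCP1 KO without overlap (95% interval of the log2 difference −1.57 to −0.44, edgeR adjusted p = 0.112), where the groups did not overlap for 1.95% of genes, counting both directions. Skeletal muscle markers summed to 53.2 to 236 CPM in those WT livers and 33.8 to 61.7 in UCP1 KO. With a skeletal muscle score as a covariate, 0% of all genes were called for UCP1 KO against WT in liver. Beyond that fit, the part of these markers in the Slc2a4 difference was not tested.

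Genes whose log2 level over the 80 libraries was among the most like each member's were found by Pearson's r, as a description driven by the 4 tissues. Slc2a2 was followed most closely by the hepatocyte genes Ugt2a3 (0.997) and Hao1 (0.996), and Phlda3 (0.992) was among the genes closest to Slc2a4. For Tbc1d4 it was Tspan3 (0.978), for Akt2 Ywhag (0.976) and for Insr Farp2 (0.949). Foxo1 (Stk38, 0.881), Irs1 (Klhl7, 0.878), Slc2a1 (Sh3bp2, 0.846) and Pik3r1 (Klhl2, 0.802) had looser companions. Irs2 had none above 0.534, the value for Sik1, a kinase gene induced by cyclic AMP.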

How the data were processed

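RNA of 80 samples (4 tissues, 4 genotypes, 5 libraries each) had been poly(A)-selected, sequenced as stranded paired-end reads, aligned by the authors with STAR to mm10 and counted per gene with HTSeq. The deposited values are raw counts, and the counting options for strand and overlap are not given in the sources used here, so reads of overlapping or antisense genes may be shared. Library totals ran from 28691377 to 50380696. The 1 row that named no gene (1.32e-05 % of counts) was left out, and no column stayed unmapped.

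Within each tissue, genes with a maximum over 15 counts, a sum over 75 and at most 10 libraries at 0 were kept (the study's filter), scaled by TMM and fitted over the 4 genotypes with edgeR 4.0.16 (R 4.3.3, quasi-likelihood F test). Benjamini-Hochberg adjustment ran over all genes of the tissue, and an adjusted p under 0.01 was called. DESeq2 1.42.0 was an alternative. Tissues were compared in WT, and the depots by the difference of 2 differences. Single members were compared with exact two-sided permutation tests on log2(CPM + 0.1), 200 in all and unadjusted. Marker scores are means of log2(CPM + 0.1). Levels per kilobase used the summed exon length of each gene. Scripts were tested on simulated data.

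The 10 members and the 7 lists of 76 other pathway genes were chosen with earlier results of these data known. Named were all members, in each list comparison up to 5 called rises and 5 called falls of largest size, and the 3 genes most like each member, of which 1 or 2 are printed. Of the genes this rule names, 2 are not reported here. Alternatives changed the filter, the scaling, the test, the threshold, the genotypes fitted, the libraries and the covariates. The BAT fits with a macrophage or hepatocyte covariate or without muscle-rich libraries, and the iWAT fit without libraries rich in lymph node or muscle genes, were chosen after seeing the data.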

Additional observations from a re-analysis of the deposited data

Results flagged for a closer look

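In 12 of the 160 groups of 5 libraries, 1 library lay far from the other 4 by Dixon's test (critical value 0.71), where independent normal values give about 1 group in 20. These groups share libraries across genes and some values are near the floor, so that rate is only a rough guide. In BAT these were UCP1 KO replicate 1 for Foxo1 (75.6 CPM, the next 38.3) and Irs2 (75.1 CPM, the next 16.5), dKO replicate 4 for Foxo1 (54.9 CPM) and Tbc1d4 (117 CPM, the next 80.1), and the highest dKO library for Slc2a2 (0.406 CPM). In iWAT, FGF21 KO replicate 2, the only library of its group with a low lymph node score, was highest for Slc2a4 (188 CPM, the next 68.1) and Akt2 (376 CPM, the next 180) and lowest for Slc2a1 (8.62 CPM). The lowest WT library for Slc2a4 in iWAT held 98.7 CPM, and it was among the 9 rich in lymph node genes. In iWAT of FGF21 KO, 1 library held 1.33 CPM of Slc2a2, the next 0.142, and it also had the highest hepatocyte score of its group. In muscle, the lowest FGF21 KO library held 83.1 CPM of Irs1, the next 95.5, and the highest dKO library held 0.214 CPM of Slc2a2.

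For 5 of 71 other pathway genes, the response to UCP1 loss differed between BAT and iWAT by a test of the difference itself, with 6.30% of all genes called. The difference (BAT minus iWAT, log2) was 2.84 for Trib3 (edgeR adjusted p = 0.00293), 2.35 for Ptprf (adjusted p = 1.13e-05), −0.634 for Foxo4 (adjusted p = 0.00426), −0.383 for Rab14 (adjusted p = 0.00848) and −5.66 for Slc2a5 (adjusted p = 0.00314). For UCP1 KO against WT, Trib3 and Ptprf were called higher and Foxo4 and Rab14 lower in BAT, and Slc2a5 higher in iWAT.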

How the results depend on the processing

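No paired analysis was made because no label links libraries of one mouse, and the replicate numbers follow accession order. If these numbers do pair libraries by mouse, the tests between tissues and between depots ignored that pairing. As a hint from the data, libraries of 2 tissues at the same place in accession order tended to deviate alike across genes, least clearly for iWAT and muscle. The best match in the other tissue had the same number for 17 of 20 libraries between BAT and liver, 14 between BAT and muscle and 12 between muscle and liver. It did so for 9 between BAT and iWAT (median r of 0.0797 for this pair, lowest −0.252), 8 between iWAT and liver and 5 between iWAT and muscle. For UCP1 KO against WT in BAT, 2 members called became 4 at an adjusted p under 0.05, 1 with only the compared genotypes in the fit and 0 with the macrophage covariate, where 40.7%, 16.5% and 3.8% of all genes were called. For dKO against FGF21 KO in BAT, 2 became 0 with the skeletal muscle covariate, without muscle-rich libraries and with the macrophage covariate, and 1 with the hepatocyte covariate (8%, 11.9%, 7.54% and 6.38% of all genes). For dKO against WT in BAT, 3 became 1 with no low-count filter, the skeletal muscle covariate or the hepatocyte covariate, and 0 without muscle-rich libraries or with the macrophage covariate (13.1%, 11.7%, 11.5%, 17.1% and 12.4% of all genes). Over all 4 BAT genotypes, 3 became 0 with the macrophage covariate (7.55% of all genes). With only low lymph node libraries, 0 became 1 for UCP1 KO against WT in iWAT (3.73% of all genes) and for the depot difference (Akt2, 12.1% of all genes). With only iWAT libraries low in lymph node and skeletal muscle genes, 0 became 2 for UCP1 KO against WT and 1 over all genotypes (6.46% and 3.55% of all genes). With library totals, the Insr difference turned to −0.38 between BAT and iWAT and to 0.31 between iWAT and muscle. For all of these shifts the cause was not tested.

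Leaving out 1 library at a time, BAT counts ran from 2 to 4 for UCP1 KO against WT (4 without UCP1 KO replicate 1, Irs1 and Slc2a1 added), 0 to 2 for dKO against FGF21 KO (0 without FGF21 KO replicate 1 or 4) and 1 to 3 for dKO against WT (1 without WT replicate 4 or 5 or dKO replicate 2, 3 or 4). In iWAT they ran from 0 to 1 over all genotypes, for UCP1 KO against WT and for UCP1 KO against dKO, where Foxo1 entered without UCP1 KO replicate 2, and Slc2a4 over all genotypes without FGF21 KO replicate 2. The depot difference ran from 0 to 2. In muscle and liver every such count stayed at 0. The share of all genes called was not computed for the fits without 1 library, so these counts have no background beside them.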
